A study of Mus musculus with 12 samples.

Results

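The regions described here are DNase I hypersensitive sites of G1E-ER4 cells that had a peak in both asynchronous and mitotic cells after GATA1 was restored and no peak in the GATA1-null parent line G1E. The peaks of 12 replicate lists on chromosomes 1 to 19 were merged where they shared at least 1 bp. A merged region was kept with a peak in at least 2 of 3 asynchronous and at least 2 of 3 mitotic G1E-ER4 lists and in none of the 6 G1E lists, and chromosome 2 beyond position 156000000 was left out. This gave 632 of 257623 merged regions (0.245%). They are called kept G1E-ER4 sites here, where kept means found at both stages, since no cell was followed through division. Presence in all 12 lists chose them, so their presence and their within-list ranks are a description and carry no test.

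GATA1 is a zinc finger transcription factor that binds GATA motifs and is required for red cell maturation. With partners such as FOG1, TAL1, LMO2 and LDB1 it opens and activates erythroid genes and silences genes of the progenitor state. DNase I cuts where nucleosomes are displaced, so hypersensitive sites mark active promoters, enhancers and insulators. In mitosis chromosomes condense, transcription is largely shut down and many factors leave the DNA, and sites that stay open or bound through this stage are discussed as bookmarks for the daughter cells.

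G1E-ER4 is a rescue subline of G1E with an inducible GATA-1. Its mitotic libraries came from cells given 100 nM estradiol for 22 h and 200 ng/ml nocodazole for 7 h, and its asynchronous libraries from cells given the same estradiol and no nocodazole. The mitotic G1E libraries came from cells given nocodazole in the same way, and the asynchronous G1E libraries from cells labelled with neither agent, and no G1E library is labelled with estradiol. G1E was derived from strain 129 embryonic stem cells in which GATA-1 was disrupted by targeting. Nocodazole blocks the spindle, and mitotic cells were then sorted for phosphorylated histone H3, a mark of condensed chromosomes. All cells were fixed with 0.1% formaldehyde before digestion. The labels give G1E-ER4 as Ter119+CD71+ cells and G1E as a mixture of Ter119-CD71- and Ter119-CD71+ cells. Ter119 appears late in the red cell lineage and CD71 is the transferrin receptor. GATA1, estradiol, marker state and line changed together and cannot be told apart. Peak lists measure no transcripts, so the cell type could not be checked against markers.

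Each of the 4 groups had 3 libraries, and each library 1 list of 100000 peaks ordered by the signal of the authors' peak caller. Peak names numbered along the genome show that at least 273095 to 586668 peaks had been called per library before this limit. A rank of 1 is the highest signal, and a region without a peak in a list may still hold signal below its limit. The lists covered 45.1 to 181 Mb. The files give no read counts, so depth is unknown. Separate cultures are not stated for the replicates, so p-values measure only the spread between these libraries, and that spread may be technical.

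Most kept G1E-ER4 sites met the rule with no list to spare. A peak in exactly 2 mitotic and 2 asynchronous lists was found in 353 of the 632 sites (55.9%). A further 116 sites had 2 mitotic and 3 asynchronous lists, 117 had 3 mitotic and 2 asynchronous lists, and 46 (7.28%) had a peak in all 6. By library, 565, 449 and 413 of the 632 sites had a peak in mitotic replicates 1, 2 and 3, and 530, 494 and 402 in asynchronous replicates 1, 2 and 3. Replicate 1 held the most sites and replicate 3 the fewest at both stages.

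The limits of the class were crowded. Just outside it, 1056 regions with the same absence from G1E had at least 2 asynchronous lists and 1 mitotic list, and 1344 had 1 asynchronous list and at least 2 mitotic lists. The sites with 2 lists of each stage had median ranks of 62587 in mitotic and 66682 in asynchronous lists. Regions that missed by 1 mitotic list had median ranks of 64799 in mitotic and 66722 in asynchronous lists, and those that missed by asynchronous lists 62905 and 73273. The 46 sites with all 6 lists were stronger, at 43298 in mitotic and 34412 in asynchronous lists. A further 1465 regions met both G1E-ER4 conditions and had a peak in exactly 1 G1E list, which was mitotic replicate 2 for 596 of them (40.7%). Of all 38250 regions that met both G1E-ER4 conditions, 632 (1.65%) were in no G1E list and 18077 (47.3%) in all 6.

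The count moved with single lists. Leaving out mitotic G1E-ER4 replicate 1, 2 or 3 gave 242, 350 or 382 sites. Leaving out asynchronous replicate 1, 2 or 3 of the same line gave 304, 303 or 396, since both remaining lists are then needed. Without mitotic G1E replicate 2 it was 1252. The mirror class, with a peak in at least 2 mitotic and at least 2 asynchronous G1E lists and in no G1E-ER4 list, held 785 regions (0.305%), and is called kept G1E sites here. That count was 255 or 228 without mitotic G1E replicate 2 or 3.

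Kept G1E-ER4 sites were mostly weak peaks at both stages. Their median rank was 49264, 63915 and 58073 in mitotic replicates 1, 2 and 3, and 59348, 59743 and 61247 in asynchronous replicates 1, 2 and 3. The group means of these medians were 57084 ± 7375 in mitotic and 60113 ± 1002 in asynchronous lists (SD, n = 3 each), and the ranges overlapped. By contrast, regions of all 12 lists had mean median ranks of 9538 in mitotic and 8716 in asynchronous G1E-ER4 lists. Regions of at least 4 lists had 34508 and 34198. Of the members' peaks, 41.4% ± 8.87 in mitotic and 36.2% ± 1.27 in asynchronous lists were among the 50000 strongest (SD, n = 3 each). The share was 50.8% in mitotic replicate 1. Among the 20000 strongest peaks of a list lay 8.65% ± 5.72 of the members' peaks in mitotic and 6.71% ± 2.06 in asynchronous lists (SD, n = 3 each).

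**Figure D1:**
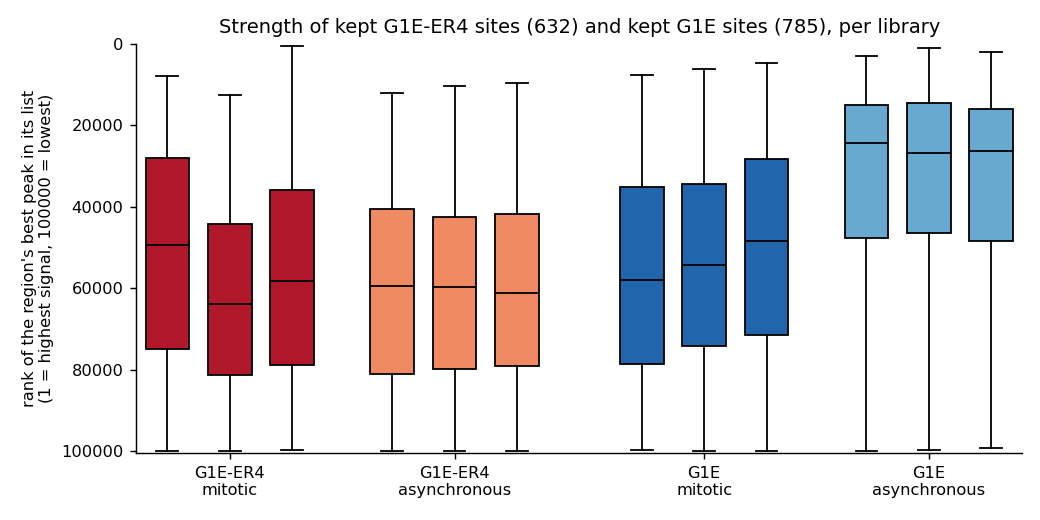
Within-list rank (vertical axis, 1 is the strongest peak, axis inverted) of the peaks of 632 kept G1E-ER4 sites and 785 kept G1E sites in the lists of their own line, 1 box per library in replicate order. Boxes span the quartiles with the median, and whiskers reach the best and the worst rank. The kept G1E-ER4 sites have medians between 49264 and 63915 in all 6 lists, while the kept G1E sites have medians between 24317 and 26806 in the 3 asynchronous lists.

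The mirror class had another profile. Kept G1E sites had median ranks of 58013, 54309 and 48330 in the mitotic G1E lists and of 24317, 26806 and 26388 in the asynchronous ones. At both stages the kept G1E-ER4 sites lay near the ranks that kept G1E sites had in mitosis. Strong asynchronous peaks were fewer among the kept G1E-ER4 sites: 6.71% ± 2.06 of the peaks of kept G1E-ER4 sites were among the 20000 strongest of their asynchronous lists, against 36.7% ± 3.83 of those of kept G1E sites (SD, n = 3 each).

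Site by site, the mean mitotic rank was better than the mean asynchronous rank in 370 of 632 kept G1E-ER4 sites (58.5%), against 161 of 785 kept G1E sites (20.5%). The ratio of mitotic to asynchronous rank had a median of 0.94 in kept G1E-ER4 sites, with 5% of sites below 0.441 and 5% above 2.04, and a median of 1.61 in kept G1E sites. A mitotic rank at least 2-fold better was found in 49 kept G1E-ER4 sites, and an asynchronous rank at least 2-fold better in 35. In kept G1E sites these numbers were 11 and 297. Kept G1E-ER4 sites thus centred close to equal ranks, with few sites far to either side. Ranks stop at the end of a list, however, which bounds these ratios for weak peaks. The median of the mean asynchronous ranks was 63930 in kept G1E-ER4 sites and 29359 in kept G1E sites. A mitotic rank 2-fold worse was out of reach at the first of these medians and possible at the second. The part of this limit in the contrast between the classes was not tested.

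**Figure D2:**
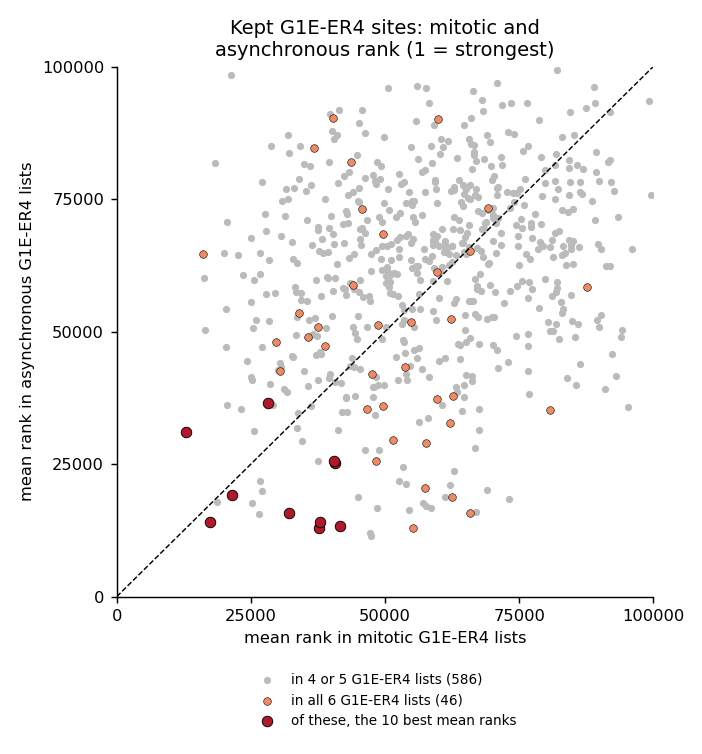
Mean rank over the mitotic lists with a peak (horizontal axis) against mean rank over the asynchronous lists with a peak (vertical axis) for each of the 632 kept G1E-ER4 sites, with smaller ranks for stronger peaks and a dashed line of equal rank. Most points lie at ranks above 40000 on both axes, the 46 sites of all 6 lists spread over the whole field, and 370 of the 632 points lie on the side where the mitotic rank is better.

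The 46 sites with a peak in all 6 lists had mean ranks of 15774 to 75074, with a median of 43184. The mitotic rank was the better one in 19 of them. The strongest by mean rank lies on chromosome 16 from 50525911 to 50527072 (mm9, as are all positions here). It ranked 27009, 12700 and 12657 in mitotic replicates 1, 2 and 3, and 20776, 10938 and 10563 in asynchronous replicates 1, 2 and 3. The list of replicate 1 placed it lowest at each stage, and the stages overlapped. Its 6 summits lay within 43 bp, and the nearest G1E peak was 2772 bp away. The second site, on chromosome 12 from 29522529 to 29523947, ranked 33636, 12546 and 18484 in mitotic and 28297, 15465 and 13789 in asynchronous lists. A G1E peak lay 541 bp away, and its 6 summits were spread over 470 bp.

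The third site was stronger in every mitotic list. It lies on chromosome 7 from 87074269 to 87075533 and ranked 8519, 15557 and 14686 in mitotic lists, against 28646, 29056 and 35385 in asynchronous lists. The next 4 sites were the other way round, with every asynchronous rank better than every mitotic one. With 3 ranks per stage such a separation can arise by chance. Its share over the 46 sites was not counted, so it is not read as a stage difference. The fourth, on chromosome 1 from 88217454 to 88218051, ranked 21676, 38218 and 36526 in mitotic lists and 17217, 17832 and 12305 in asynchronous lists. The fifth, on chromosome 2 from 131321455 to 131324337, ranked 18035, 22506 and 72505 in mitotic lists and 15476, 10366 and 12897 in asynchronous lists. These 2 sites were not absent from every G1E file: the authors' pooled asynchronous G1E list had a peak at rank 88617 in the fourth, and their pooled mitotic G1E list had one at rank 39225 in the fifth. The sixth, on chromosome 8 from 126496575 to 126497781, ranked 45788, 44020 and 24044 in mitotic lists and 19941, 12695 and 9630 in asynchronous lists. The seventh, on chromosome 6 from 134403786 to 134405134, ranked 25864, 76848 and 22263 in mitotic lists and 17250, 11052 and 11691 in asynchronous lists. For the fifth and the seventh the spread among mitotic lists exceeded the gap between the mean ranks of the stages, and for the seventh the pooled asynchronous G1E list had a peak there at rank 87833.

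In the remaining 3 of the 10 best sites the stages overlapped. The eighth, on chromosome 11 from 109027535 to 109028268, ranked 20366 to 35229 in mitotic and 26747 to 51698 in asynchronous lists. The ninth, on chromosome 11 from 117952073 to 117953668, ranked 27252 to 54566 in mitotic and 18086 to 34755 in asynchronous lists. The tenth, on chromosome 4 from 129878704 to 129879460, ranked 17527 to 54140 in mitotic and 22108 to 27769 in asynchronous lists. G1E peaks lay 1253, 372 and 255 bp from these 3 sites in the same order.

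Among the 46 sites, the largest tilt towards mitosis was on chromosome 8 from 124052310 to 124053621, with ranks of 14757, 12497 and 21191 in mitotic lists against 30355, 97062 and 66264 in asynchronous lists. The ratio of the mean mitotic to the mean asynchronous rank was 0.25. The chromosome 7 site above came next, with 0.416. It was followed by chromosome 5 from 126031033 to 126033387 (0.434), chromosome 14 from 48077528 to 48079749 (0.447) and chromosome 6 from 129181738 to 129183277 (0.532). The last 3 had asynchronous peaks at mean ranks of 82009 to 90381, near the end of the lists, and summits spread over 1042 to 1563 bp, so that the peaks of the lists they share do not mark 1 position.

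The largest tilt towards asynchronous cells was on chromosome 5 from 110601858 to 110602871. It ranked 91988, 54903 and 18768 in mitotic lists, against 13645, 14139 and 11145 in asynchronous lists, a ratio of 4.26. Next came chromosome 19 from 11011391 to 11012607, with 80637, 23877 and 92800 in mitotic lists against 15572, 15896 and 16090 in asynchronous lists, a ratio of 4.15. Chromosome 2 from 130180682 to 130182011 had a ratio of 3.32, and the chromosome 6 and chromosome 2 sites among the 10 best had ratios of 3.12 and 2.92. In these 5 sites the asynchronous ranks lay close together and the mitotic ranks far apart. Summit spreads over all 6 lists were 71 to 223 bp.

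Kept G1E-ER4 sites had a median width of 1278 bp and a range of 300 to 7193 bp. Kept G1E sites had a median of 1017 bp, and all merged regions 623 bp. A width grows with the number of lists merged, and regions of all 12 lists had a median of 3313 bp. More than 1 peak of the same list fell into 135 kept G1E-ER4 sites (21.4%). The widest lies on chromosome 11 from 89158677 to 89165869, with ranks of 25957 and 58261 in mitotic replicates 1 and 3, no peak in mitotic replicate 2, and 16818, 92910 and 64801 in asynchronous lists. Its summits were spread over 3542 bp.

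Peaks of different lists often sat at different points of the same kept G1E-ER4 site. Between a mitotic and an asynchronous list, the median distance of the strongest summits was 117 to 181 bp over the 9 pairs of lists. Between mitotic lists it was 120 to 144 bp, and between asynchronous lists 93 to 211 bp, so pairs within a stage were about as far apart as pairs across stages. In kept G1E sites the 3 asynchronous pairs had medians of 24 to 25 bp, the 3 mitotic pairs 31 to 104 bp and the 9 pairs across stages 26.5 to 186 bp.

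Summit distance went with strength. The distance between the best mitotic and the best asynchronous summit had a median of 49 bp in the 78 kept G1E-ER4 sites with a mean rank up to 40000, of 121 bp in the 230 sites up to 60000 and of 170 bp in the 324 weaker ones. It was within 150 bp in 71.8%, 54.3% and 46.6% of these sites, and in 332 of all 632 (52.5%). In kept G1E sites of the same rank classes the medians were 26, 44 and 184 bp, and the shares within 150 bp 92.2%, 76.4% and 47.9%. A site can therefore count as kept although the peaks of its stages do not coincide, most often where they are weak.

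Absence from G1E meant the absence of an overlapping peak, and G1E peaks often lay nearby. A peak of some G1E list lay within 1000 bp of 352 kept G1E-ER4 sites (55.7%), at a median distance of 817 bp over all sites, and 42 sites (6.65%) had none within 10000 bp. The same share was 46.6%, with a median distance of 1119 bp, for the 2175 G1E-ER4 sites (0.844% of all merged regions) that were in at least 2 asynchronous lists and in no mitotic or G1E list. For kept G1E sites, 36.6% had a G1E-ER4 peak within 1000 bp, with a median distance of 1748 bp. With the added demand of no G1E peak within 1000 bp, 280 kept G1E-ER4 sites were left. The nearest region of all 12 lists lay at a median of 24447 bp.

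The sites were scattered, with 530 alone and 45 pairs and 4 triples linked by gaps of at most 100 kb. One triple lay on chromosome 11 from 120062758 to 120161548. Chromosome 15 had a pair of triples, between 81476854 and 81601177 and between 84176413 and 84197469. The remaining triple, on chromosome 5 from 126023853 to 126034990, spans 11138 bp and holds the chromosome 5 site with the tilt towards mitosis.

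By chromosome, kept G1E-ER4 sites ranged from 0.246 per 1000 merged regions on chromosome 4 to 4.24 on chromosome 11, which held 69. Chromosomes 15, 16 and 9 had 4.12, 4.07 and 3.92 per 1000. Chromosome 4 had 5 kept G1E-ER4 sites against 66 kept G1E sites, and chromosome 12 had 20 against 107. The lists themselves differed there. Chromosome 4 held 15.9% of the peaks of mitotic and 13.7% of those of asynchronous G1E replicate 1, and 4.67% to 7.46% in the other 10 lists. As any G1E peak bars a region from the class, these lists touch the count directly, and the part of a chromosome's peak share in the counts was not tested.

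**Figure D3:**
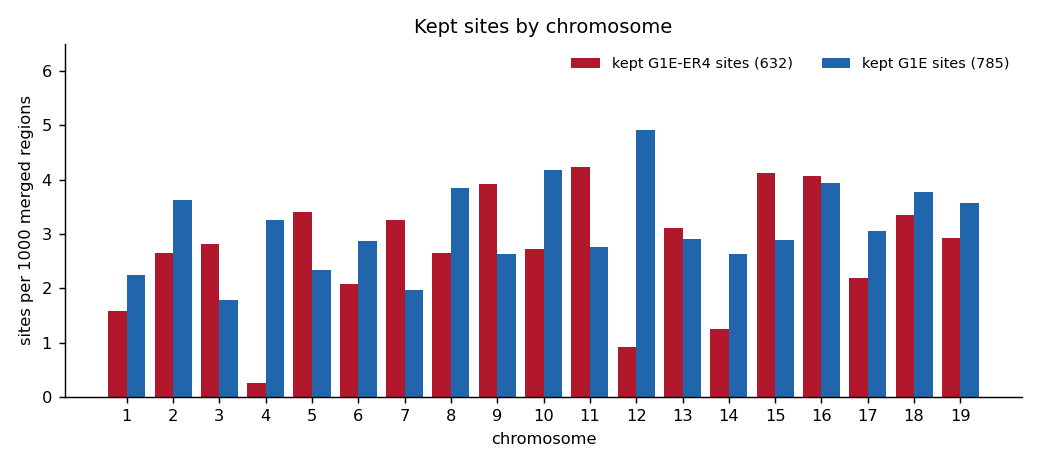
Kept sites per 1000 merged regions (vertical axis) on each autosome (horizontal axis), for the 632 kept G1E-ER4 sites and the 785 kept G1E sites. Kept G1E-ER4 sites are fewest on chromosome 4 at 0.246 and most on chromosome 11 at 4.24, and chromosome 2 is counted up to position 156000000.

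The authors' pooled lists, made from the same libraries, held most kept G1E-ER4 sites and some of the G1E signal that the replicate lists lacked. A peak was found in the pooled mitotic G1E-ER4 list for 604 sites (95.6%) and in the pooled asynchronous one for 590 (93.4%), and in both for 565 (89.4%). The pooled mitotic G1E list had a peak in 120 sites (19%), at a median rank of 85568, and the pooled asynchronous G1E list in 23 (3.64%), at a median rank of 89931. Together 136 sites (21.5%) met a pooled G1E peak, most of them near the end of those lists. Of kept G1E sites, 103 of 785 (13.1%) met a pooled G1E-ER4 peak. The full pattern held in the pooled lists for 442 kept G1E-ER4 sites (69.9%).

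Whether the pattern extended to lists that had not chosen the sites was tested by leaving out 1 list of each group, selecting again from the other 8, and looking the regions up in the 4 lists left out. Over the 81 choices, 168 to 670 regions were selected. They had a peak in 69.3%, 55.9% and 46.8% of cases in left-out mitotic G1E-ER4 replicates 1, 2 and 3, and in 32.3%, 53.0% and 33.9% of cases in left-out mitotic G1E replicates 1, 2 and 3. In asynchronous cells the shares were 69.0%, 58.1% and 46.3% in G1E-ER4 and 27.0%, 8.74% and 15.6% in G1E. The lines did not overlap in asynchronous cells, while in mitotic cells G1E replicate 2 lay above G1E-ER4 replicate 3. The lists also differed in breadth. Asynchronous replicates 1, 2 and 3 covered 181, 88.5 and 84.3 Mb in G1E-ER4 and 113, 45.1 and 57.5 Mb in G1E. Mitotic replicates 1, 2 and 3 covered 146, 89.1 and 64.9 Mb in G1E-ER4 and 130, 112 and 84.9 Mb in G1E. The part of breadth in these shares was not tested. For scale, a single list held 24.4% to 32.5% of all merged regions and 55.3% to 77.6% of the regions of at least 4 lists.

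The left-out G1E-ER4 lists held more of these sites than the left-out G1E lists. The means were 57.3% ± 11.3 in mitotic G1E-ER4 and 39.7% ± 11.5 in mitotic G1E, and 57.8% ± 11.3 in asynchronous G1E-ER4 and 17.1% ± 9.20 in asynchronous G1E (SD, n = 3 each). The mean difference was 29.1 percentage points (p = 0.005 in a two-sided exact permutation test that exchanged lines within each stage, with 0.0025 the smallest p of its 400 arrangements). Adjusted by Benjamini-Hochberg over the 3 tests reported here, p was 0.015. With lines exchanged only within a replicate number, the exact permutation p was 0.03125, not adjusted. The difference was 17.6 points in mitotic and 40.7 points in asynchronous cells, and whether these differ was not tested. It was 57.0 points among the 20000 highest peaks, and 49.6 points with chromosome X and distal chromosome 2 included. The first of these settings largely describes other regions. Of the 145 sites kept among the 20000 highest peaks, 2 overlapped a kept G1E-ER4 site. The 1199 sites of the wider setting are the 632 kept sites with 563 on distal chromosome 2 and 4 on chromosome X added. In the main setting, a selection by presence in 8 lists left 57.3% of its sites found again in mitosis. Mean shares of 39.7% and 17.1% were found in mitotic and asynchronous G1E lists whose presence had not entered the selection.

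**Figure D4:**
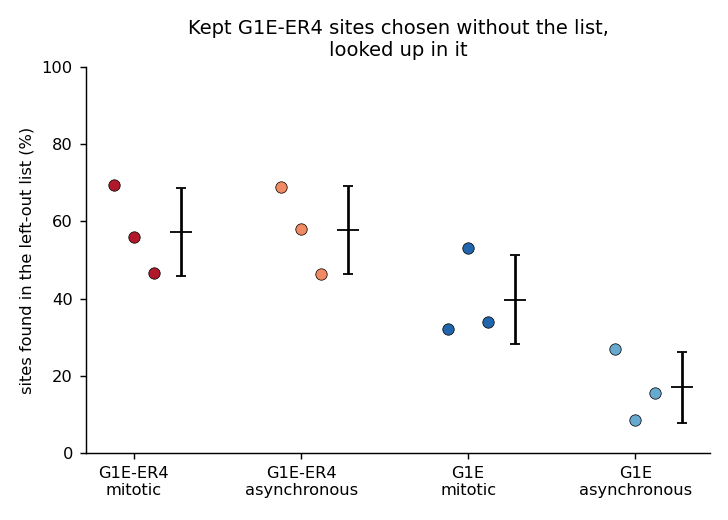
Share (percent, vertical axis) of the regions selected from 8 lists that had a peak in the list left out, by group, with 1 point per left-out list and, beside the points, a cross line for the mean over the 3 lists with its SD. The G1E-ER4 means are 57.3% in mitotic and 57.8% in asynchronous lists, against 39.7% and 17.1% in G1E, and the lines overlap in mitotic cells.

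For the mirror selection the same measure gave shares of 13.3% ± 2.62 in mitotic G1E-ER4 and 48.5% ± 19.2 in mitotic G1E, and of 29.3% ± 8.33 in asynchronous G1E-ER4 and 84.1% ± 3.30 in asynchronous G1E (SD, n = 3 each). Its difference, G1E minus G1E-ER4, was 45.0 points. This is an arrangement of the same permutation test and has no p of its own.

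Of the asynchronous G1E-ER4 sites absent from all G1E lists, few were in at least 2 mitotic lists. Of the 3863 regions with at least 2 asynchronous G1E-ER4 lists and no G1E list, 632 (16.4%) had at least 2 mitotic lists, 1056 (27.3%) had 1, and 2175 (56.3%) had none. The kept share was 5.96%, 9.02% or 9.88% without mitotic G1E-ER4 replicate 1, 2 or 3, where both remaining mitotic lists are needed. For the mirror set of 13285 regions of asynchronous G1E, 785 (5.91%) had at least 2 mitotic G1E lists, 2092 (15.7%) had 1 and 10408 (78.3%) none. That share was 1.92% or 1.71% without mitotic G1E replicate 2 or 3, again with both remaining lists needed. The order of the lines was not stable: the kept share was 12.7% in G1E-ER4 and 19.4% in G1E among the 20000 highest peaks. Without mitotic G1E-ER4 replicate 1 the shares were 5.96% and 6.49%. There G1E-ER4 needed both remaining mitotic lists and G1E still 2 of 3, so these shares are not alike. The 37359 regions with at least 2 asynchronous lists of each line were kept in 69.2% of cases in G1E-ER4 and in 79.0% in G1E. No mitotic list entered the choice of these shared regions, whereas absence from the mitotic G1E lists helped to choose the 3863. With absence from asynchronous G1E alone, single mitotic G1E-ER4 lists held 58.2% ± 9.90 and left-out asynchronous lists 59.3% ± 13.1 of the regions of 2 asynchronous G1E-ER4 lists (SD, n = 3 each).

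Asynchronous peaks of kept sites had median widths of 1044, 534 and 515 bp in replicates 1, 2 and 3, against 741, 412 and 414 bp for the 2175 sites in no mitotic list. They were wider in each list, while the lists differed among themselves by more than the classes did. The median asynchronous rank was 60113 ± 1002 for kept sites, against 66174 ± 2960 for the 2175 sites (SD, n = 3 each). The rule asks kept sites to hold mitotic peaks as well, which can favour wide regions. Of kept sites 21.4% held 2 or more peaks of a list, against 1.56% of the 2175, and the best peak gave width and rank. The part of the rule in these differences was not tested. Sites placed high were kept more often. With a mean asynchronous rank up to 20000, 24 of 41 sites absent from G1E were kept (58.5%), and the share was 17.4%, 19.6%, 15.6% and 11.5% in the following classes of 20000 ranks. In regions shared with asynchronous G1E, chosen without any mitotic list, the same classes gave 93.5%, 56.7%, 48.8%, 44.0% and 34.4%.

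Loss in mitosis was set against the spread between asynchronous lists by taking regions of 2 asynchronous G1E-ER4 lists and no G1E list, 1665 to 1927 regions for each choice. Mitotic replicates 1, 2 and 3 held 29.6%, 20.4% and 17.2% of them, against 47.6%, 41.2% and 42.7% in left-out asynchronous replicates 1, 2 and 3. Every mitotic share lay below every asynchronous share. The means were 22.4% ± 6.44 in mitotic and 43.8% ± 3.38 in asynchronous lists (SD, n = 3 each). The deficit, counted as asynchronous minus mitotic so that a positive value means fewer sites in mitosis, was 21.4 percentage points. Its exact permutation p was 0.05 (two-sided, adjusted 0.075), the smallest that 20 arrangements allow, and it did not fall below the threshold of 0.05. The regions were also chosen by absence from mitotic G1E, so this choice enters the deficit and the p cannot separate the 2.

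This deficit depended on how absence from G1E was set. With absence from the 3 asynchronous G1E lists only, which took in 5617 to 8102 regions, mitotic lists held 67.3%, 59.6% and 47.7% and left-out asynchronous lists 74.4%, 51.6% and 52.0%. The stages then overlapped, and the deficit was 1.1 points (exact permutation p = 0.9). Demanding absence from mitotic G1E as well thus removed regions that mitotic G1E-ER4 lists held. The deficit was also 4.52, 5.14 or 1.83 points without asynchronous G1E-ER4 replicate 1, 2 or 3, where the regions rest on 1 list, and 36.5 and 47.9 points among the 50000 and 20000 highest peaks.

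Sites shared with G1E had a deficit of similar size in points. For regions of 2 asynchronous G1E-ER4 lists that also had at least 2 asynchronous G1E lists, mitotic lists held 73.4% ± 2.89 and left-out asynchronous lists 92.7% ± 2.05 (SD, n = 3 each), a deficit of 19.4 points. The deficit of sites absent from G1E minus that of shared sites was 2.05 points (two-sided exact permutation p = 0.85, adjusted 0.85, 20 arrangements), which the spread between lists does not set apart from 0. As a share of the replicate level, mitotic lists held 51.1% for sites absent from G1E and 79.1% for shared sites, and this ratio was not tested. The sets were not chosen alike: absence from mitotic G1E helped to choose the absent sites, and no mitotic list chose the shared ones. With absence from the asynchronous G1E lists only, the deficit was 1.1 points, against 19.4 points for shared sites, and this contrast was not tested. The difference of 2.05 points changed sign with the processing, to -7.60 with 300 bp around each summit (exact permutation p = 0.4) and to -1.78 within classes of equal rank (exact permutation p = 0.85). It was also below 0 without any 1 of the asynchronous G1E-ER4 lists (-16.4 to -14.3), of the mitotic G1E lists (-3.51 to -1.02), or mitotic G1E-ER4 replicate 2 (-0.587). It was 12.7 points among the 50000 and 29.9 among the 20000 highest peaks (exact permutation p = 0.25 and 0.05).

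Within classes of asynchronous rank, the share found fell off differently by stage. At ranks 10001 to 20000, mitotic lists held 50.5% ± 15.1 of the sites absent from G1E, and asynchronous lists 97.5% ± 4.37 (SD, n = 3 each). One class further, at ranks 20001 to 30000, it was 25% ± 5.78 in mitotic and 89.6% ± 9.0 in asynchronous lists. From there the mitotic share stayed between 18.2% and 23.2%, while the asynchronous share came down to 46.6% ± 3.13 at ranks 50001 to 60000 and to 19.1% ± 4.18 at ranks 90001 to 100000. In the last class the stages differed by less than the spread between lists. Shared sites at ranks 20001 to 30000 were found in 60.6% ± 5.31 of cases in mitotic and 97.0% ± 2.39 in asynchronous lists (SD, n = 3 each). Unlike these, the sites absent from G1E had been chosen by absence from mitotic G1E as well. No test was made across the classes, which held 29 to 403 regions absent from G1E for each choice.

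**Figure D5:**
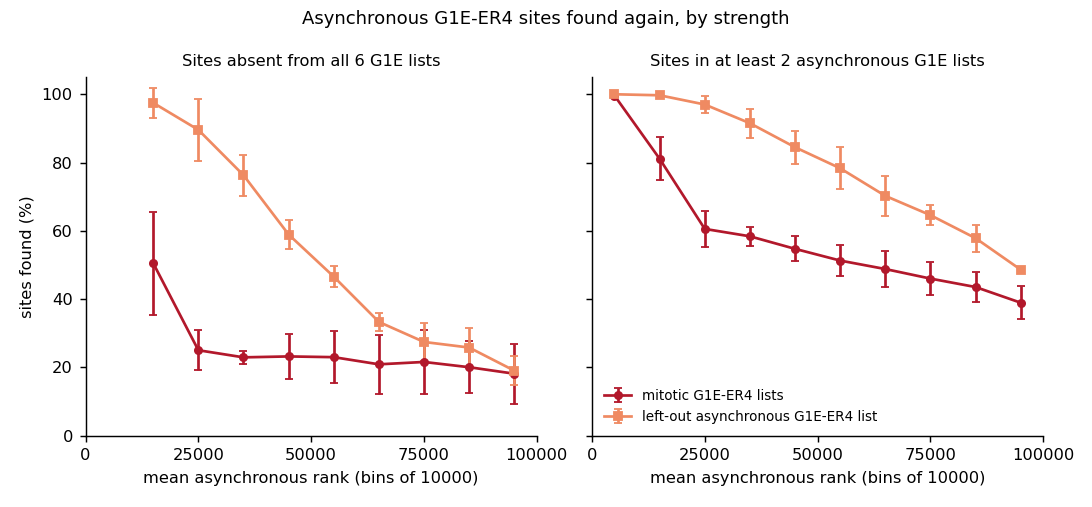
Share of regions of 2 asynchronous G1E-ER4 lists found in mitotic and in left-out asynchronous G1E-ER4 lists (percent, vertical axis) by class of asynchronous rank (horizontal axis, 10000 ranks wide), for sites absent from G1E and sites shared with G1E, as mean and SD over 3 lists. Sites absent from G1E are found in 25% of cases in mitotic and 89.6% in asynchronous lists at ranks 20001 to 30000. For these sites the stages meet at ranks 90001 to 100000, where shared sites are found in 39.0% and 48.6% of cases.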

How the data were processed

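The deposited files are peak lists, 1 per library and 4 in which the authors pooled replicates. The signal per peak is a value of the authors' peak caller with an unstated normalization, and it was used only to rank peaks within a deposited list. The submitters' processing notes name Bowtie and build mm9, while the sources used here give no peak caller or filter. Read depth is unknown, so no counting interval is given.

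Presence was a peak inside a merged region. A region's rank in a list was its best peak's rank, and its summit that peak's summit, from the offset in the deposited list. The members, lists and tests were chosen with earlier results of these data known. The named regions are, among sites of all 6 G1E-ER4 lists, the 10 with the best mean rank and the 5 with the largest ratio of mean ranks in each direction, plus the widest site. Tests were exact permutation tests over lists with a threshold of 0.05, and the procedure was tested on simulated data. Alternatives were other rank limits, 300 bp around summits, leaving out each list, other chromosomes, overlaps, list numbers and definitions of absence, and pooled lists. Gene annotation and sequence motifs were not analysed here, and no positions were converted between builds. Python 3.11.15, numpy 2.4.6, pandas 2.3.3, scipy 1.17.1 and matplotlib 3.10.9 were used.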

Additional observations from a re-analysis of the deposited data

Results flagged for a closer look

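Outside the chromosomes that enter the class, the same pattern of presence was found in 563 of 6097 merged regions of chromosome 2 beyond position 156000000, or 92.3 per 1000. It was found in 4 of 1651 regions of chromosome X, or 2.42 per 1000. Over the chromosomes that enter the class it was 2.45 per 1000, so chromosome X lay at that level. Both parts lie outside the rule of the class and entered only the alternative that includes them.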

How the results depend on the processing

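The 632 kept sites were 364 and 145 among the 50000 and 20000 highest peaks, 1129 with 300 bp around each summit, 1199 with chromosome X and distal chromosome 2, 46 with all 3 lists of each stage, 5053 in the pooled lists, 280 with no G1E peak within 1000 bp, and 273 where a peak had to cover at least 0.5 of its region, a setting chosen after seeing the data. Leaving out a list gave 242 to 1252. Of the 145 sites among the 20000 highest peaks, 2 (1.38%) overlapped a kept site, so a tighter rank limit selected other regions. Shared were also 45 of 364, 377 of 1129 and 409 of 5053. The line difference in left-out lists kept its sign and its side of the threshold under every alternative run (26.3 to 57.0 points, and 22.2 to 30.7 on leaving out a list, exact permutation p = 0.0025 to 0.03125). The mitotic deficit was 1.1 to 47.9 points, and 1.83 to 26.1 on leaving out a list. The deficit of absent minus shared sites turned to -7.60 with 300 bp around summits, -0.338 with chromosome X and distal chromosome 2, -1.78 within rank classes and -16.9 where peaks cover 0.5 of the region, and ranged from -16.4 to 5.83 on leaving out a list. The cause was not tested. The planned overlap of 0.5 of the shorter interval changes nothing, as each peak lies whole in its region. Leaving out chromosomes 1, 4, 12 and 14 was also chosen after seeing the data. Deviations of same-numbered libraries from their group means had correlations of -0.0566 to 0.0828 over 18 pairs, none above 0.1. The own number correlated best in 10 of 18. The main tests did not take the numbers to pair the libraries. Replicate 1 was, however, the broadest list of each group, at 181 and 146 Mb in asynchronous and mitotic G1E-ER4 and 113 and 130 Mb in G1E. Both G1E libraries numbered 1 also shared the high chromosome 4 share. With labels exchanged only within a replicate block, the values stayed 29.1, 21.4 and 2.05 points, with exact permutation p = 0.03125, 0.125 and 0.75, which were not adjusted. For the stage tests such an exchange allows no permutation p below 0.125. Read depth, which limits whether a weak peak is found, is unknown.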
